A study of Mus musculus with 18 samples.

Results

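The transcripts described here encode the enzymes that make serine and pass its one-carbon unit to folate, together with *Asns*, the enzyme that makes asparagine. Their 10 members were *Phgdh*, *Psat1* and *Psph* for serine synthesis, *Shmt2*, *Mthfd2*, *Mthfd1l* and *Aldh1l2* for the mitochondrial arm of folate metabolism, *Shmt1* and *Mthfd1* for its cytosolic arm, and *Asns*. They were chosen by name, with earlier results of these data known, out of 55385 genes listed in the count table, and all 10 were found and had enough reads to be tested among 14979 genes. The libraries came from bone marrow-derived macrophages (BMDM) of female C57BL/6J mice aged 12 weeks, grown for 7 days with L929 supernatant as the source of growth factor. Each culture first received vehicle (Veh, 0.1% DMSO), HC3 at 250 µM (hemicholinium-3, an inhibitor of choline uptake) or RSM-932a at 5 µM (RSM, an inhibitor of choline kinase) over 24 h. For the following 24 h cells had no cytokine (M[0], naïve BMDM) or were given IL-4 at 20 ng/mL (M[IL-4]). This gave 6 groups of 3 libraries each, prepared from 3 individual mice.

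Serine is made from a glycolytic intermediate in consecutive steps run by PHGDH, PSAT1 and PSPH. Serine hydroxymethyltransferases then move a carbon from serine to tetrahydrofolate, giving glycine, and paired enzymes in mitochondria and cytosol carry the folate-bound carbon between oxidation states for purine, thymidylate and methionine synthesis. In many cells the serine synthesis genes, the mitochondrial folate genes and *Asns* are known targets of ATF4. This is a transcription factor whose translation rises under amino acid or endoplasmic reticulum stress. Choline can itself feed one-carbon units into folate through its oxidation to betaine, a route best known from liver.

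The 18 libraries held between 17457796 and 19522255 counted read pairs. Every macrophage marker listed was detected, and their summed level in CPM (counts scaled to library size) ranged from 20277 to 21364 in Veh M[0] libraries, from 8707 to 9799 with HC3 and from 15749.5 to 17196 with RSM. After IL-4 the sum was 11801 to 12146 CPM with Veh, 7469 to 8657 with HC3 and 10601 to 12982 with RSM, so it was lower with IL-4 in vehicle cells as well. Summed stromal markers, mostly collagen genes, were between 569.6 and 962 CPM in Veh M[0], 1372 and 1835 with HC3 and 1095 and 1544 with RSM, so their sum moved with the inhibitors there. In M[IL-4] the stromal sum was 315 to 720.4 CPM with Veh, 628 to 1160.0 with HC3 and 585 to 1120.4 with RSM, and these ranges overlapped. 7 of the 8 stromal markers had enough reads to be tested, and *Lum* was at 0 in all groups but Veh M[IL-4]. They did not all move alike, since in M[0] the collagen genes *Col1a1* and *Col3a1* had log2 changes of 1.17 and 1.45 with HC3 and 1.13 and 1.16 with RSM, while *Dcn*, the proteoglycan decorin, had -0.10 with HC3 and -1.51 with RSM. Neutrophil markers summed to at most 2.04 CPM, dendritic cell markers to at most 3.37 and lymphocyte markers to at most 1.18, with *S100a9*, *Elane* and *Cd3d* among those at 0 throughout. Whether cell makeup had a part in the differences below was not tested, and in RNA from whole cultures fewer cells of a type and less RNA per cell cannot be told apart.

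The start regions of *Asns*, *Mthfd2* and *Phgdh* are shown because these 3 genes followed each other most closely across the libraries, as described further on. Each window runs from 250 bases before to 50 bases after a transcription start in RefSeq (build GRCm38.p6) and is written in the gene's own direction. All 3 genes lie on the minus strand, at chr6:7693160-7693459, chr6:83317555-83317854 and chr3:98339920-98340219. Capitals mark the letters TGATGNAA, the core of the element that ATF4 and its C/EBP partners are known to bind.
Asns: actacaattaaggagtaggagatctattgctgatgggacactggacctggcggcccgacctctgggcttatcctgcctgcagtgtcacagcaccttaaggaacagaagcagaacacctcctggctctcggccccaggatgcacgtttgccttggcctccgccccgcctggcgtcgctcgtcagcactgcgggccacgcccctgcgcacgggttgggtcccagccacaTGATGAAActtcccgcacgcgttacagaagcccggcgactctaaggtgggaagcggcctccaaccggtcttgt
Mthfd2: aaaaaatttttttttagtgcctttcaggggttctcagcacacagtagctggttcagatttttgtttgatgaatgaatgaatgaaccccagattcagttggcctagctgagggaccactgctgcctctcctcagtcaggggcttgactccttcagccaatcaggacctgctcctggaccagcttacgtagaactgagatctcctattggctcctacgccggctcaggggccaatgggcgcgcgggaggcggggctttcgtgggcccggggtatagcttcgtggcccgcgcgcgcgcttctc
Phgdh: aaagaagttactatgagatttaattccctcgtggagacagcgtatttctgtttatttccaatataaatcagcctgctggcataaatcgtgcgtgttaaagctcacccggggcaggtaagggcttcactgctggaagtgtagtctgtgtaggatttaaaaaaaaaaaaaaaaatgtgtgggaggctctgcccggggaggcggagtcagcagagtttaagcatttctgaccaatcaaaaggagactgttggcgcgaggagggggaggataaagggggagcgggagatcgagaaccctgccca
The search read both strands, the other strand as TTNCATCA. In *Asns* the letters stood 23 bases upstream of the start, on the gene's own strand, as TGATGAAA. RefSeq windows were at hand for 9 of the 10 genes (10 windows, since *Psat1* has 2), the exception being *Aldh1l2*. *Asns* was the 1 member with a match. The search covered only these windows and these letters, so it cannot show that a gene lacks such an element. Among all 32851 windows of this length 3.97% held the letters, which came to 4.51% of 27025 genes. The E-box CACGTG, letters bound by MYC, was in a window of 0 members and in 7.15% of all windows, or 8.09% of genes.

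A gene was called here when the false discovery rate (FDR) from edgeR was under 0.05 and the log2 fold change at least 1 in size, and a gene "passed the test" on the FDR alone. In naïve BMDM, 6 of the 10 genes were called higher with HC3, against 5.93% of all genes tested, and 8 of 10 were called higher with RSM, against 5.05%. On the FDR alone 8 of 10 rose with each inhibitor, where 22.6% of all genes did with HC3 and 20.5% with RSM. The members that rose were the same 8 in both comparisons, which share their Veh libraries, and were the genes of serine synthesis, the mitochondrial folate arm and *Asns*. In the other direction, where 21.5% of all genes passed the test with HC3 and 20.7% with RSM, edgeR gave 0 members in both comparisons, with 0 at an unadjusted p under 0.05 and 0 by DESeq2. For these 8 genes all inhibitor libraries also lay above all vehicle libraries, which held for 26.6% of all genes with HC3 and 25.8% with RSM. The median log2 fold change of the 10 genes was 1.12 with HC3 and 1.36 with RSM, beside 0.02 and 0.01 over all genes tested. Of the 8 macrophage markers, 6 were called lower with HC3 and 3 with RSM in the same libraries, where 6.11% and 6.51% of all genes were.

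**Figure D1:**
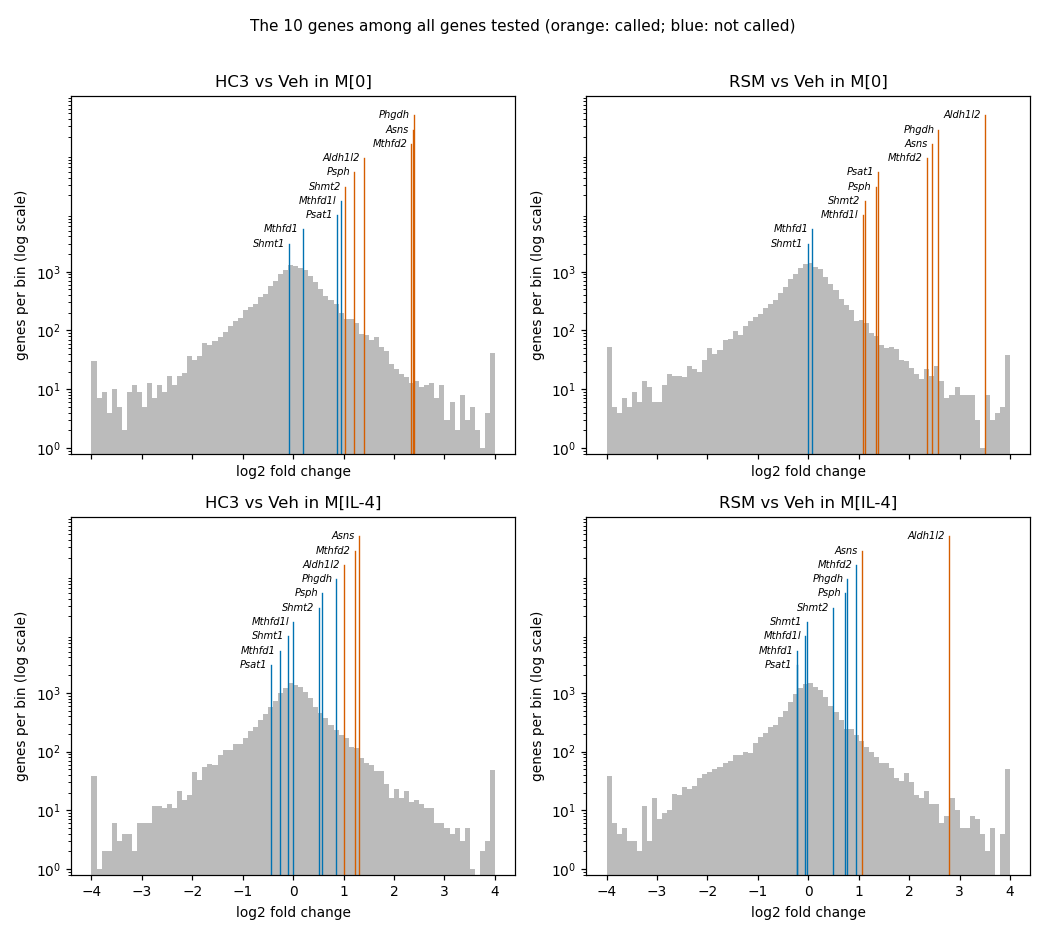
Log2 fold changes of all 14979 genes tested (grey bars, number of genes per bin on a log axis, values beyond 4 in size counted in the outermost bins) with each of the 10 genes as a vertical line, orange where called and blue where not, for both inhibitors in M[0] and M[IL-4]. In M[0] the lines of *Phgdh*, *Asns* and *Mthfd2* stand in the right tail between 2.34 and 2.58, while *Shmt1* and *Mthfd1* stand between -0.27 and 0.20 in all 4 panels.

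*Phgdh*, the first and committed enzyme of serine synthesis, lies on chromosome 3 (GRCm38, 98313170 to 98339990, minus strand). Its level in Veh M[0] was 17.6, 10.1 and 20.2 CPM in replicates 1, 2 and 3. With HC3 it was 81.5, 86.7 and 83.8 CPM, and with RSM it was 99.1, 89.4 and 99.2 CPM. Every inhibitor-treated library therefore stood above every vehicle library, and replicate 2 was the lowest of the Veh libraries. The log2 fold change was 2.39 ± 0.17 (SE) with HC3, or 5.24-fold (edgeR FDR = 1.58e-09), and 2.58 ± 0.171 with RSM, or 5.98-fold (edgeR FDR = 6.22e-10). IL-4 alone raised *Phgdh* to 64.0, 45.2 and 66.2 CPM, a log2 fold change of 1.87 ± 0.17 (edgeR FDR = 9.92e-08). Given before IL-4, HC3 led to 111, 102 and 105 CPM and RSM to 107, 89.8 and 104 CPM. These M[IL-4] groups did not overlap with Veh M[IL-4]. Their rise over it was smaller than the rise in M[0], at 0.86 ± 0.155 with HC3 (edgeR FDR = 0.000206) and 0.78 ± 0.155 with RSM (edgeR FDR = 0.000515). Of the longest coding transcript of *Phgdh*, 84.26% is near-identical to the pseudogene Gm7901, which itself was given 1 to 26 counts per library while *Phgdh* had at least 172, so reads between them may have been lost or split.

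*Psat1*, the aminotransferase of the next step (chromosome 19, 15904678 to 15947337, minus strand), behaved differently in M[IL-4]. In Veh M[0] its level was 33.3, 24.5 and 32.8 CPM. HC3 gave 58.6, 51.6 and 55.3 CPM and RSM gave 94.2, 60.9 and 81.2 CPM in naïve cells, all above the vehicle libraries. The log2 fold change was 0.87 ± 0.164 with HC3 (edgeR FDR = 0.000279), which passed the test without reaching 1, and 1.38 ± 0.164 with RSM (edgeR FDR = 1.53e-06). IL-4 alone took *Psat1* to 87.3, 98 and 103 CPM, the highest mean of the 6 groups, a log2 fold change of 1.67 ± 0.164 (edgeR FDR = 2.69e-07). In M[IL-4] cells HC3 left it at 70.8, 61.2 and 81.6 CPM and RSM at 93.9, 63.5 and 88.7 CPM. The HC3 libraries were all below the vehicle ones, with a log2 fold change of -0.43 ± 0.156 (edgeR FDR = 0.0345), whereas the RSM libraries overlapped with them at -0.23 ± 0.155 (edgeR FDR = 0.267). The fall with HC3 did not pass without replicate 1 (edgeR FDR = 0.0666), without replicate 3 (edgeR FDR = 0.139) or with scaling by library size alone (edgeR FDR = 0.0787). With replicate numbers as blocks within each polarization, the value for RSM was -0.24 and passed (edgeR FDR = 0.0261).

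*Psph*, the phosphatase that releases serine (chromosome 5, 129765558 to 129787449, minus strand), had the lowest level per kb of exon of the serine synthesis genes in every group. It stood at 9.62, 8.46 and 8.44 CPM in Veh M[0], at 20.8, 19.5 and 20.9 CPM with HC3 and at 23.4, 18.7 and 24.9 CPM with RSM. Both inhibitor groups were clear of vehicle and were called, at 1.20 ± 0.128 (edgeR FDR = 3.5e-07) and 1.34 ± 0.128 (edgeR FDR = 9.44e-08). IL-4 alone gave 13.9, 12.1 and 12.9 CPM, a rise of 0.55 on the log2 scale (edgeR FDR = 0.00321, and 0.0737 without replicate 3). In M[IL-4] the levels were 17.4 to 20.4 CPM with HC3 and 17.7 to 23.6 CPM with RSM, which passed the test at 0.58 (edgeR FDR = 0.00104) and 0.73 (edgeR FDR = 0.000103). Exons of *Cct6a* on the other strand cover 10.441% of *Psph*, and the strand setting of the counting is not given in the sources used here. *Cct6a* was expressed at 144 to 217 CPM and differed in naïve cells by 0.38 for HC3 and 0.29 for RSM, and IL-4 alone moved it by 0.45 (edgeR FDR = 0.000109), beside the 0.55 of *Psph*.

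**Figure D2:**
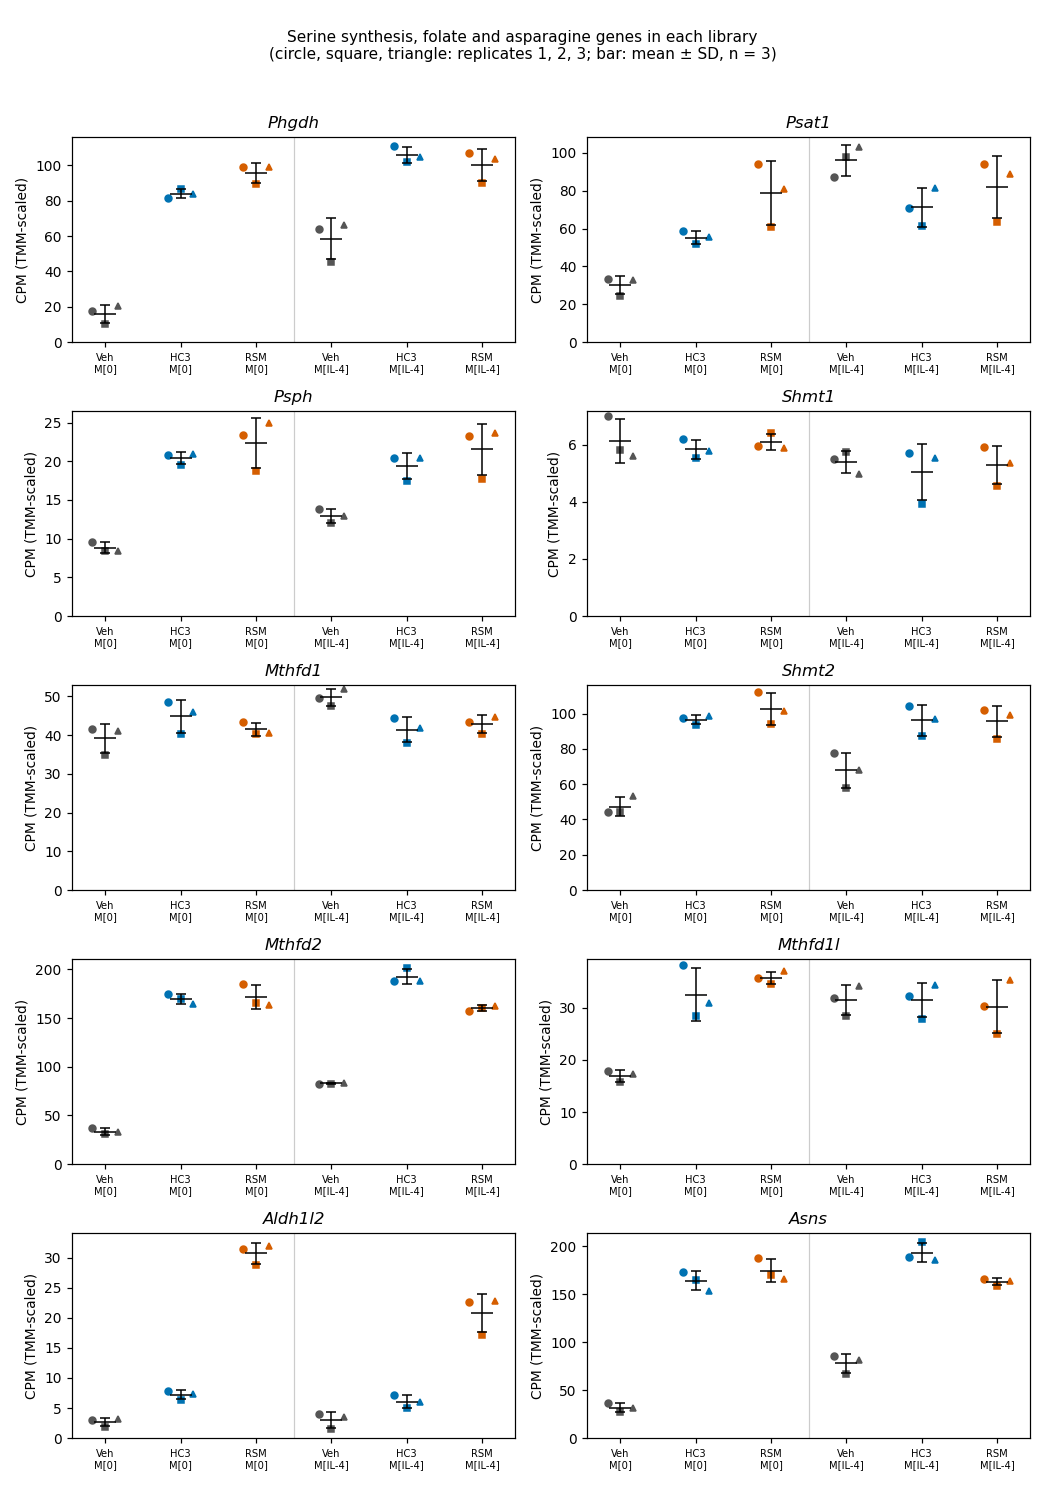
Level of each of the 10 genes in CPM (TMM-scaled, linear axes from 0) in every library, with circles, squares and triangles for replicates 1, 2 and 3 and bars for mean ± SD of 3 libraries. *Aldh1l2* is high in the RSM groups, *Psat1* has its highest mean (96.2 CPM) in Veh M[IL-4], and *Shmt1* stays between 3.93 and 7.02 CPM.

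*Mthfd2*, the mitochondrial dehydrogenase and cyclohydrolase of folate (chromosome 6, 83305691 to 83325908, minus strand), had the smallest standard errors of the 10 genes. Veh M[0] libraries had 37.1, 30.4 and 32.8 CPM, HC3 libraries 175, 169.5 and 164 CPM, and RSM libraries 185, 165 and 163 CPM. The inhibitor groups were far from vehicle and overlapped with each other. The log2 fold change was 2.34 ± 0.0704 with HC3 (5.06-fold, edgeR FDR = 2.41e-14) and 2.36 ± 0.0704 with RSM (5.12-fold, edgeR FDR = 3.21e-14). IL-4 alone gave 82.1, 82.7 and 83.8 CPM, or 1.31 ± 0.0697 on the log2 scale (edgeR FDR = 8.78e-11). In M[IL-4], HC3 libraries had 188, 202 and 188 CPM and RSM libraries 158, 161 and 163 CPM. Here the 3 groups were all apart, with log2 fold changes against Veh of 1.22 ± 0.0665 for HC3 (edgeR FDR = 6.96e-11) and 0.95 ± 0.0663 for RSM (edgeR FDR = 1.55e-09), the latter just short of 1.

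*Shmt2*, the mitochondrial serine hydroxymethyltransferase (chromosome 10, 127517123 to 127522444, minus strand), started from the highest level per kb of the 10 genes and rose less than *Mthfd2*. It had 44.1, 44.2 and 53.3 CPM in Veh M[0], 97.4, 93.6 and 98.4 CPM with HC3, and 112, 94.3 and 101 CPM with RSM. The groups were apart from vehicle and the changes were 1.03 ± 0.106 with HC3 (edgeR FDR = 2.16e-07) and 1.12 ± 0.106 with RSM (edgeR FDR = 7.75e-08). These values lie close to the threshold of 1. That for HC3 was 0.96 without replicate 1 and 0.99 without replicate 2, and that for RSM was 0.996 without replicate 1, so the calls but not the directions rest on those libraries. IL-4 alone gave 77.5, 58.1 and 67.8 CPM (0.52 on the log2 scale, edgeR FDR = 0.000926), and M[IL-4] libraries with an inhibitor lay between 85.4 and 104 CPM. Those M[IL-4] groups were also clear of vehicle, at 0.50 with HC3 (edgeR FDR = 0.000712) and 0.50 with RSM (edgeR FDR = 0.000803).

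*Mthfd1l*, the mitochondrial synthetase that frees formate (chromosome 10, 3973118 to 4167081, plus strand), rose with each stimulus given alone. Its range was 15.7 to 17.9 CPM in Veh M[0], 28.4 to 38.2 CPM with HC3, 34.6 to 37.0 CPM with RSM and 28.5 to 34.3 CPM with IL-4. Each of these groups was apart from Veh M[0], with log2 fold changes of 0.94 ± 0.127 for HC3 (edgeR FDR = 7.39e-06), 1.08 ± 0.127 for RSM (edgeR FDR = 1.4e-06) and 0.90 ± 0.128 for IL-4 (edgeR FDR = 2.54e-05). In M[IL-4], where IL-4 followed the inhibitor, the groups lay at 27.9 to 34.4 CPM for HC3 and 25.0 to 35.3 CPM for RSM, overlapping with Veh M[IL-4]. The 95% interval of the difference was -0.26 to 0.26 for HC3 and -0.32 to 0.20 for RSM on the log2 scale.

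*Aldh1l2*, the mitochondrial enzyme that oxidizes formyl-folate to carbon dioxide with reduction of NADP (chromosome 10, 83487450 to 83534140, minus strand), was the member that separated the inhibitors. Veh M[0] libraries had 2.99, 1.88 and 3.23 CPM, HC3 libraries 7.86, 6.40 and 7.31 CPM, and RSM libraries 31.5, 28.8 and 32.0 CPM. The 3 groups were far apart in that order. The log2 fold change was 1.41 ± 0.252 with HC3 (2.65-fold, edgeR FDR = 0.000164) and 3.50 ± 0.241 with RSM (11.3-fold, edgeR FDR = 1.06e-09). In M[IL-4] the levels were 3.98, 1.45 and 3.53 CPM with Veh, 7.19, 5.04 and 6.02 CPM with HC3, and 22.6, 17.1 and 22.7 CPM with RSM, again in 3 separate ranges. The changes were 1.02 ± 0.253 with HC3 (edgeR FDR = 0.00347) and 2.79 ± 0.238 with RSM (edgeR FDR = 2.23e-08), and the former was 0.81 without replicate 2 and then not called. IL-4 itself gave 0.15 ± 0.277 in vehicle cells (edgeR FDR = 0.728), where 8 of the other 9 genes rose. Exons of *D10Wsu102e* on the other strand cover 14.074% of *Aldh1l2*. That gene had 36.9 to 61.2 CPM and differed by 0.06 between RSM and Veh in M[0] (edgeR FDR = 0.613).

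The cytosolic genes were not called in any inhibitor or IL-4 comparison. *Shmt1*, the cytosolic serine hydroxymethyltransferase (chromosome 11, 60788104 to 60811718, minus strand), lay between 3.93 and 7.02 CPM in all 18 libraries, and no 2 neighbouring groups in the order of its levels were apart. Its log2 fold changes over the 4 inhibitor comparisons ran from -0.10 to -0.01, and their 95% intervals spanned -0.43 to 0.31, which leaves out a change of 1 in either direction. *Mthfd1*, the cytosolic trifunctional folate enzyme (chromosome 12, 76255298 to 76319803, plus strand), had 41.5, 34.9 and 41.2 CPM in Veh M[0], 48.6, 40.2 and 45.9 CPM with HC3 and 43.5, 40.3 and 40.6 CPM with RSM. These groups overlapped, with 0.20 ± 0.0851 for HC3 (edgeR FDR = 0.0713, and 0.0172 with replicate blocks) and 0.08 ± 0.0853 for RSM (edgeR FDR = 0.488). IL-4 alone raised it slightly, to 49.7, 47.6 and 52.0 CPM, by 0.34 on the log2 scale (edgeR FDR = 0.00438, and 0.0891 without replicate 3). In M[IL-4] it was lower with HC3, at 38.1 to 44.4 CPM, by a log2 fold change of -0.27 ± 0.0848 (edgeR FDR = 0.0182). That call on the FDR was lost without replicate 3 (edgeR FDR = 0.205) and with scaling by library size alone (edgeR FDR = 0.0838). With RSM it was at 40.3 to 44.8 CPM and -0.22 ± 0.0846 (edgeR FDR = 0.0513), which passed with replicate blocks (edgeR FDR = 0.0097) and by DESeq2 (FDR = 0.0294).

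*Asns*, which makes asparagine from aspartate and glutamine (chromosome 6, 7675169 to 7693254, minus strand), moved with *Mthfd2*. Veh M[0] libraries had 36.8, 27.1 and 31.5 CPM, HC3 libraries 174, 165 and 154 CPM, and RSM libraries 188, 170.4 and 166 CPM. All 6 inhibitor libraries were above the vehicle ones, by 2.37 ± 0.101 with HC3 (5.16-fold, edgeR FDR = 1.51e-12) and 2.46 ± 0.102 with RSM (5.49-fold, edgeR FDR = 1.42e-12). IL-4 alone gave 85.7, 66.9 and 81.0 CPM, a rise of 1.29 ± 0.1 (edgeR FDR = 1.24e-08). In M[IL-4], HC3 libraries had 189, 205 and 186 CPM and RSM libraries 166, 159 and 164 CPM. Both groups were clear of Veh M[IL-4], at 1.31 ± 0.0958 with HC3 (edgeR FDR = 3.4e-09) and 1.06 ± 0.0955 with RSM (edgeR FDR = 4.4e-08), and the latter fell to 0.97, under the threshold, without replicate 2.

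Counted over the group, IL-4 in vehicle cells gave 4 of 10 genes called higher (*Phgdh*, *Psat1*, *Mthfd2* and *Asns*), against 2.83% of all genes tested. On the FDR alone 8 of 10 rose, against 16.1% of all genes, all but *Shmt1* and *Aldh1l2*, and the same genes had all Veh M[IL-4] libraries above all Veh M[0] libraries, against 21.1% of all genes. Without replicate 3 this was 6 of 10. The median log2 fold change of the members was 0.72, beside -0.01 over all genes. Of the 8 macrophage markers, 4 were called lower in this comparison, against 3.83% of all genes. In cells already given an inhibitor the median change of the members with the same cytokine was -0.02 with HC3 and -0.10 with RSM. With HC3, edgeR gave 0 members past the FDR and 4 higher at an unadjusted p under 0.05, while 7.22% of all genes passed as higher and 7.48% as lower, and DESeq2 gave 1 (*Mthfd2*). The 10 log2 fold changes ran from -0.24 to 0.37, and their 95% intervals spanned -0.72 to 0.70. With replicate blocks *Phgdh*, *Psat1*, *Mthfd2* and *Asns* passed as higher in that comparison, by 0.33, 0.36, 0.19 and 0.24. With RSM, edgeR gave 0 members in either direction and 1 lower at an unadjusted p under 0.05, where 8.79% of all genes passed as higher and 6.74% as lower. That gene was *Aldh1l2* at -0.56 ± 0.199 (edgeR FDR = 0.0656), which passed by DESeq2 (FDR = 0.0283) and with replicate blocks (edgeR FDR = 0.00172), as *Mthfd1l* at -0.25 also did with the blocks (edgeR FDR = 0.0494). The 10 values with RSM ran from -0.56 to 0.06, within intervals of -0.98 to 0.39.

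**Figure D3:**
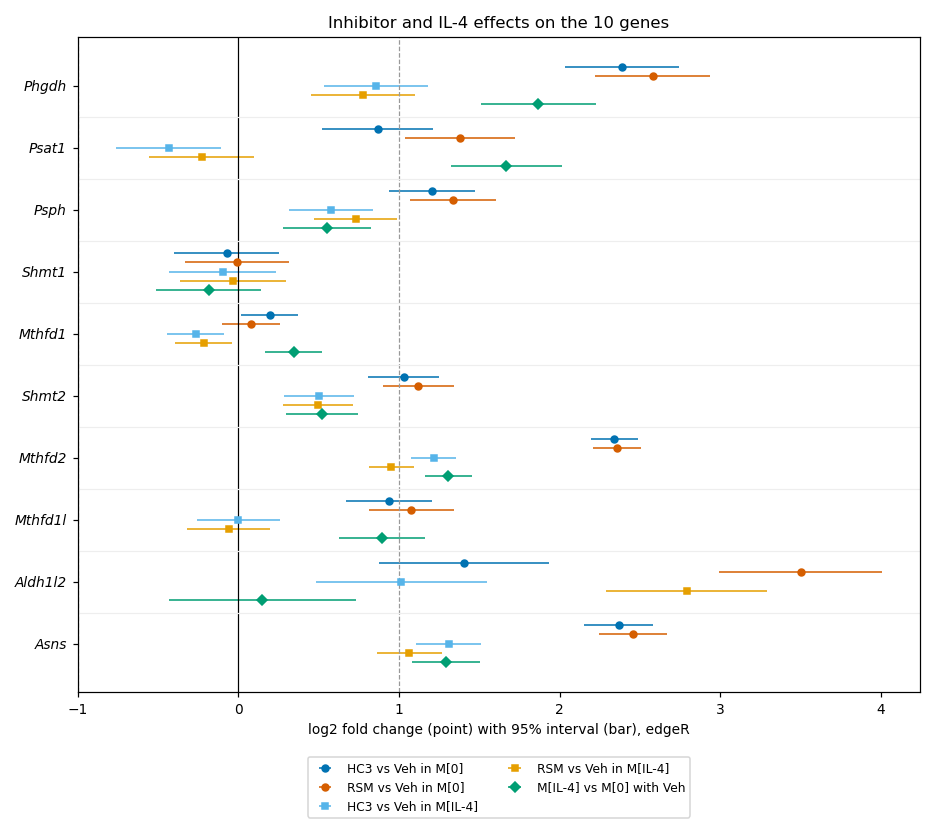
Log2 fold change of each of the 10 genes (points) with its 95% interval from edgeR (bars) for each inhibitor against vehicle in both polarizations and for IL-4 against no cytokine in vehicle cells, with dashed lines at a change of 1 in size. For *Phgdh*, *Mthfd2* and *Asns* the M[0] inhibitor points lie between 2.34 and 2.58 and the M[IL-4] points between 0.78 and 1.31.

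In M[IL-4] cells, 3 of 10 genes were called higher with HC3 (*Mthfd2*, *Aldh1l2* and *Asns*), against 4.72% of all genes tested, and 2 of 10 with RSM (*Aldh1l2* and *Asns*), against 5.05%. The count for RSM was 1 without replicate 2. On the FDR alone 6 of 10 rose with each inhibitor, where 18.9% of all genes did with HC3 and 20.1% with RSM, and had no overlap with vehicle, as was so for 22.2% and 23.7% of all genes. The members that passed as lower with HC3 were *Psat1* and *Mthfd1*, or 2 of 10 against 19.9% of all genes, a share near the background. The median log2 fold change was 0.54 with HC3 and 0.61 with RSM, beside 0.01 and 0.02 over all genes. Of the 8 macrophage markers, 2 were called lower with HC3 and 0 with RSM here, where 5.53% and 6.0% of all genes were. On the FDR alone 7 markers were lower and 1 higher with HC3, and 1 lower and 2 higher with RSM.

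The difference between the inhibitor effects in M[IL-4] and in M[0] was tested directly as an interaction term. For HC3 it was called negative in 4 of 10 genes (*Phgdh*, *Psat1*, *Mthfd2* and *Asns*), against 0.761% of all genes tested, and for RSM in 5 of 10 (the same 4 and *Mthfd1l*), against 0.921%. *Phgdh* had the largest terms in size, -1.53 ± 0.228 for HC3 (edgeR FDR = 0.000415) and -1.80 ± 0.228 for RSM (edgeR FDR = 4.03e-05). *Mthfd2* had -1.12 ± 0.0949 (edgeR FDR = 1.67e-06) and -1.40 ± 0.0951 (edgeR FDR = 7.24e-08). For *Asns* the terms were -1.06 ± 0.137 (edgeR FDR = 0.00012) and -1.39 ± 0.137 (edgeR FDR = 3.15e-06), and for *Psat1* -1.30 ± 0.227 (edgeR FDR = 0.00162) and -1.61 ± 0.225 (edgeR FDR = 0.000116). On the FDR alone 8 of 10 terms were negative for HC3, against 3.4% of all genes, and 7 of 10 for RSM, against 4.14%. These counts rest on all 3 replicates. Without replicate 1 they were 4 and 5, without replicate 2 they were 6 and 8, and without replicate 3 they were 2 and 5. With library size scaling they were 5 and 6. Replicate blocks gave 8 and 8, and blocks within each polarization gave 8 and 9. *Mthfd1* passed for RSM with either kind of block, at -0.30 (edgeR FDR = 0.0335 and 0.0137). For HC3 without replicate 3, which leaves 2 libraries in each group, *Phgdh* and *Mthfd2* still passed, whereas *Asns* had an FDR of 0.0519 and *Psat1* and *Mthfd1l* of 0.0821 in edgeR. A negative term was not always a smaller effect, since for HC3 *Psat1* had 0.87 in naïve cells against -0.43 after IL-4, and *Mthfd1* had 0.20 against -0.27. *Shmt1* had terms of -0.02 for both inhibitors, and those of *Aldh1l2* were -0.39 ± 0.36 (edgeR FDR = 0.637) and -0.71 ± 0.341 (edgeR FDR = 0.237). The *Aldh1l2* term for RSM passed with blocks within each polarization (-0.70, edgeR FDR = 0.03). It also passed without a count filter (edgeR FDR = 0.0458) and without replicate 2 (edgeR FDR = 0.0418).

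Set against each other, HC3 and RSM differed in *Aldh1l2* by far the most. The doses differ and the compounds act on different steps, so the values compare these treatments as given. In M[0], 1 of 10 genes was called lower with HC3 than with RSM, against 1.44% of all genes tested, and in M[IL-4] again 1 of 10, against 1.59%. In both cases it was *Aldh1l2*, at -2.10 ± 0.214 in the first (edgeR FDR = 1.5e-06) and -1.78 ± 0.219 (edgeR FDR = 1.51e-05) in the second. On the FDR alone 2 of 10 were lower in M[0], against 7.43% of all genes, and in M[IL-4] 1 of 10 was lower and 1 higher, against 8.03% and 4.97%. *Psat1* was also lower with HC3 in M[0], by -0.51 ± 0.158 (edgeR FDR = 0.0366), but not without replicate 1 (FDR = 0.221) or replicate 3 (FDR = 0.305). *Mthfd2* was higher with HC3 in M[IL-4], by 0.26 ± 0.065 (edgeR FDR = 0.00984, and 0.0619 and 0.152 without replicates 2 and 3). *Asns* differed there by 0.24 ± 0.0933 (edgeR FDR = 0.0983, and 0.0275 with replicate blocks). For *Phgdh* the 95% interval of the difference was -0.51 to 0.13 in M[0] and -0.24 to 0.40 in M[IL-4].

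Transcripts of the mitochondrial folate genes (*Shmt2*, *Mthfd2*, *Mthfd1l*, *Aldh1l2*), summed per kb of exon, exceeded the sum of *Shmt1* and *Mthfd1* in all 18 libraries. The mitochondrial sum holds more genes, and *Aldh1l1*, the cytosolic counterpart of *Aldh1l2*, is in neither sum. The size of the ratio therefore does not compare single genes. In Veh M[0], *Mthfd1* at 8.83 CPM per kb was above *Mthfd1l* at 3.82 and *Aldh1l2* at 0.359, and below *Mthfd2* at 9.59 and *Shmt2* at 15.2. The ratio was 2.62, 2.86 and 2.88 in Veh M[0], 7.26, 8.20 and 7.33 with HC3, and 8.97, 8.33 and 8.64 with RSM. It was 4.46, 4.02 and 4.16 in Veh M[IL-4], 8.35, 9.70 and 8.64 with HC3, and 7.77, 7.95 and 7.82 with RSM. Both inhibitor groups stood above vehicle in either polarization with no overlap, and Veh M[IL-4] stood between Veh M[0] and the inhibitor groups. The mean log2 ratio in M[0] differed from Veh by 1.45 ± 0.0709 (SE) with HC3 and 1.63 ± 0.0530 with RSM. In M[IL-4] the differences were 1.08 ± 0.0786 and 0.90 ± 0.0452. IL-4 moved it by 0.59 ± 0.0618 in vehicle cells, by 0.23 ± 0.0859 with HC3 and by -0.14 ± 0.0322 with RSM. Each of these differences had an exact two-sided permutation p of 0.1, the smallest that 3 libraries against 3 can give, so this test cannot reach 0.05.

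**Figure D4:**
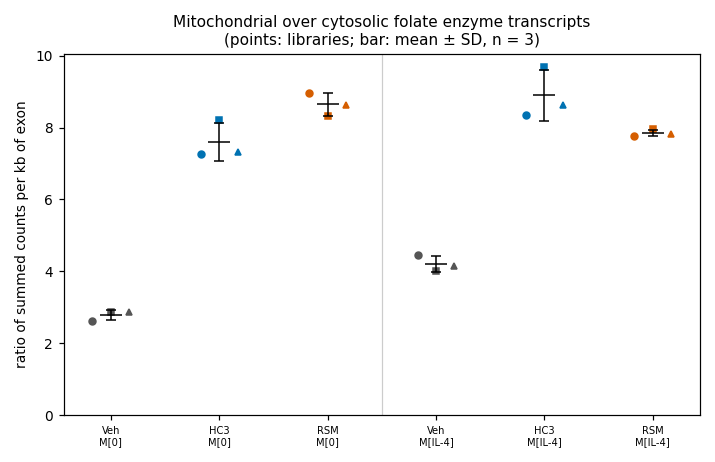
Ratio of summed counts per kb of exon, mitochondrial (*Shmt2*, *Mthfd2*, *Mthfd1l*, *Aldh1l2*) over cytosolic (*Shmt1*, *Mthfd1*), in every library (points, replicates 1, 2 and 3 as circle, square and triangle) with mean ± SD of 3 libraries (bars). Vehicle libraries lie between 2.62 and 2.88 in M[0] and between 4.02 and 4.46 in M[IL-4], and inhibitor libraries between 7.26 and 9.70.

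CPM per kb of exon sets levels of different genes side by side by their summed exon length. It does not correct for reads lost to near-identical copies, which cover 84.26% of the longest coding transcript of *Phgdh*. On this scale *Shmt2* was the most abundant of the 10 in Veh M[0], at 15.2 ± 1.7 (SD, 3 libraries), followed by *Asns* at 11.6 ± 1.8 and *Mthfd2* at 9.59 ± 0.97. With HC3 the leading genes in M[0] were *Asns* at 60.0 ± 3.6, *Mthfd2* at 48.6 ± 1.5 and *Phgdh* at 33.8 ± 1.0, ahead of *Shmt2* at 31.0 ± 0.82. *Aldh1l2* was the least abundant in Veh M[0], at 0.359 ± 0.096, and reached 4.10 ± 0.23 with RSM, above *Shmt1* at 1.57 ± 0.074. In the order of CPM over the 6 groups, *Phgdh* ran from HC3 M[IL-4] (106 CPM) through RSM M[IL-4] (100.1 CPM) and RSM M[0] (95.9 CPM), whose neighbours overlapped, down to HC3 M[0] (84.0 CPM), Veh M[IL-4] (58.5 CPM) and Veh M[0] (16.0 CPM), which were each apart. *Psph*, *Shmt2* and *Asns* had their 4 inhibitor groups overlapping from neighbour to neighbour, with Veh M[IL-4] and then Veh M[0] each apart below them.

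Across the 18 libraries the log2 CPM of *Asns* and *Mthfd2* was most like that of *Cars*, the cytosolic cysteine tRNA synthetase (Pearson r 0.995 and 0.990 among 14969 genes outside the set), and so was that of *Phgdh* (r 0.977). *Psph* and *Shmt2* were most like *Aldh18a1*, which starts proline synthesis (r 0.968 and 0.970), and *Aldh1l2* was most like *Emilin2*, an extracellular matrix gene (r 0.966). The nearest genes for the rest were *Hnrnpa1* for *Psat1* (r 0.947), *Ran* for *Mthfd1l* (r 0.927), *Erh* for *Mthfd1* (r 0.854) and Gm42848 for *Shmt1* (r 0.793). Among themselves, the 28 pairs of the 8 members other than *Shmt1* and *Mthfd1* had r between 0.411 and 0.997 with a median of 0.838, and the 17 pairs with *Shmt1* or *Mthfd1* had r between -0.302 and 0.627 with a median of 0.0724. These are descriptions, since the libraries share their treatments.

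The surrounding pathways were read from lists of genes. Among 9 transcription regulators linked to these genes, the number called higher in M[0] was 4 for HC3 and 5 for RSM, and in M[IL-4] it was 4 for each inhibitor, beside the 4.72% to 5.93% of all genes called higher in these comparisons. In M[0] their median log2 fold change was 0.93 for HC3 and 1.01 for RSM, and after IL-4 it was 0.68 and 0.91. *Atf4* itself rose from 153, 156 and 152 CPM in Veh M[0] to 525, 545 and 507 CPM with HC3 and 535, 520 and 487 CPM with RSM, by 1.77 (edgeR FDR = 4.04e-14) and 1.74 (edgeR FDR = 5.05e-14) on the log2 scale. In M[IL-4] it differed from vehicle by 1.21 (edgeR FDR = 4.62e-12) and 1.12 (edgeR FDR = 1.54e-11), and IL-4 alone raised it by 0.61 (edgeR FDR = 8.52e-08). The other genes called in all 4 inhibitor comparisons were *Trib3*, a pseudokinase induced by ATF4, at 5.50 to 6.57, *Ddit3*, which encodes the stress factor CHOP, at 2.47 to 3.33, and *Atf5*, a relative of *Atf4*, at 1.89 to 3.27. *Cebpb* was called with RSM in M[0] at 1.01, and *Cebpg* passed the test in all 4 comparisons at 0.49 to 0.72. *Nfe2l2* passed as lower in all 4, at -0.61 to -0.39, and *Atf3* passed as lower in all but HC3 in M[0], where its value was 0.04. *Myc* rose with IL-4 in vehicle cells by 1.52 (edgeR FDR = 5.39e-07) and had 0.84 with HC3 and 0.50 with RSM in M[0], then -0.18 and -0.54 in M[IL-4].

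Some folate uptake and cofactor genes fell with the inhibitors. Of 15 tested of 16 listed (not *Ftcd*), 3, 4, 4 and 4 were called lower in the comparisons of HC3 in M[0], RSM in M[0], HC3 in M[IL-4] and RSM in M[IL-4], against 6.11%, 6.51%, 5.53% and 6.0% of all genes, with medians of -0.28, -0.22, -0.10 and 0.01. In edgeR and DESeq2 alike 0 were called higher, and between 2 and 4 were higher at an unadjusted p under 0.05 in edgeR. On the FDR alone edgeR gave 8, 8, 5 and 4 lower in the same order, against 21.5%, 20.7%, 19.9% and 18.5% of all genes. It gave 3, 1, 3 and 2 higher, against 22.6%, 20.5%, 18.9% and 20.1%. *Folr2*, a folate receptor of macrophages, fell from 64.1, 46.8 and 70.4 CPM in Veh M[0] to 17.4, 9.42 and 12.8 CPM with HC3 and 7.68, 4.18 and 8.93 CPM with RSM (-2.20 and -3.12 on the log2 scale). Exons of Gm10602 cover 63.066% of *Folr2* on the other strand and that gene was lower too, at -1.82 and -1.84. *Aldh1l1*, the cytosolic counterpart of *Aldh1l2*, fell by 1.61 with HC3 (edgeR FDR = 1.3e-08) and 1.56 with RSM (edgeR FDR = 2.16e-08) in M[0], and its changes in M[IL-4] were -1.88 and -1.47. *Aldh1l1* and *Aldh1l2* thus changed in opposite directions in each of the 4 comparisons. Of the 7 folate-using nucleotide synthesis genes and the 4 glycine cleavage genes, 0 were called in any inhibitor comparison by edgeR or DESeq2. On the FDR alone edgeR gave 3 nucleotide synthesis genes higher and 0 lower for HC3 in naïve cells, where 22.6% and 21.5% of all genes passed. For RSM in naïve cells it gave 2 higher and 2 lower, where 20.5% and 20.7% of all genes passed. After IL-4 it gave 3 lower for each inhibitor, where 19.9% and 18.5% of all genes passed as lower. At an unadjusted p under 0.05 it gave 2 glycine cleavage genes higher for HC3 and 1 for RSM in naïve cells, and 0 and 1 after IL-4. On the FDR these counts were 0 and 1 in naïve cells, where 22.6% and 20.5% of all genes passed as higher. After IL-4 they were 0 and 1, where 18.9% and 20.1% did.

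Some uptake and neighbouring synthesis genes rose with the inhibitors. Of 7 serine and glycine transport and use genes tested of 10 listed, 2 were called higher in all 4 inhibitor comparisons, beside 4.72% to 5.93% of all genes. They were *Slc1a4*, a neutral amino acid transporter that carries serine, at 1.85 to 2.65, and *Slc6a9*, a glycine transporter, at 1.65 to 2.75. On the FDR alone 1 of the 7 passed as lower in each comparison, where 18.5% to 21.5% of all genes did. *Slc6a9* shares 30.247% of its exons with genes on the other strand. Of 10 other non-essential amino acid synthesis genes tested of 11 listed, *Aldh18a1* and *Pycr1*, both of proline synthesis, were called higher in all 4, at 1.00 to 1.86 and 1.18 to 1.64 (DESeq2 called 1 of them with RSM in M[IL-4]), while *Glul*, glutamine synthetase, was called lower with HC3 in M[0] at -1.47. Of the choline oxidation genes, 3 of 7 were tested. *Chdh*, which starts the oxidation of choline, had 0 counts in all 6 vehicle libraries and 13, 25 and 18 counts with HC3 and 19, 28 and 29 with RSM in M[0]. Exons of *Cacna1d*, which fell in the same comparisons, cover 9.474% of *Chdh* on the other strand. Against a floor of 3 counts over the vehicle group it was at least 17.5-fold higher with HC3 and at least 23.7-fold higher with RSM in M[0], and at least 11.6-fold and 9.41-fold higher in M[IL-4]. *Sardh*, sarcosine dehydrogenase, was called lower with HC3 in M[IL-4] at -1.02 and higher with IL-4 in vehicle cells at 1.09. DNA replication genes, which draw on the nucleotides made with folate, were all tested. Of these 18, edgeR and DESeq2 called 0 with HC3 in M[0], where 6.11% of all genes were called lower, though 12 were lower at an unadjusted p under 0.05 in edgeR. With RSM 5 were called lower, against 6.51% of all genes. In M[IL-4] the counts were 11 and 16, against 5.53% and 6.0%, with *Pcna* at -1.59 and *Mcm7* at -1.97 for RSM. On the FDR alone edgeR gave 11 lower with HC3 and 14 with RSM in M[0], against 21.5% and 20.7% of all genes. After IL-4 it gave 17 and 18 lower, against 19.9% and 18.5%. In each of these comparisons 0 of the list passed as higher. In M[0] the list had a median of -0.41 for HC3 and -0.72 for RSM, and after IL-4 of -1.09 and -1.40.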

How the data were processed

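Poly-A RNA of 18 BMDM libraries was sequenced by the authors, trimmed with fastp, aligned to GRCm38 with STAR and counted per Ensembl gene with featureCounts, with duplicates marked by Picard and kept. Read pairs were filtered on mapping quality before counting. The deposited counts are raw, 1 column per library, without normalization. Versions, annotation release and strand setting of that processing are not given in the sources used here. Of 55385 gene identifiers, 55144 matched a symbol in GENCODE annotation of GRCm38.

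The 14979 genes that reached 10 counts in 2 or more libraries were tested with edgeR 4.0.16 (TMM scaling, quasi-likelihood F test, all 6 groups in 1 fit, Benjamini-Hochberg FDR over all genes tested), with R 4.3.3. CPM values are TMM-scaled, and CPM per kb divides by the summed exon length. Intervals are 95%. Near-identical copies (at least 98% over at least 100 bases) were sought with blastn 2.17.0. The ratio of folate arms was tested by exact permutation (SciPy 1.17.1). Named pathway genes were the 2 with the lowest FDR among those called in each direction in an inhibitor comparison, with every listed regulator. The most alike gene of each member was that with the highest Pearson r of log2 CPM over 18 libraries. *Chdh* bounds cover counting error only.

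The members and the lists were chosen with earlier results of these data known. Alternatives were DESeq2 1.42.0, other scalings and filters, the compared groups alone, replicate blocks and leaving out each replicate. On simulated counts (HC3 against Veh in M[0], 14570 genes, log2 changes of 2 in size) edgeR recovered 199 of 200 changed genes with 2 false calls. The simulation held no changes near the threshold of 1 and no deviation shared by replicate number. It therefore does not bear on calls near that threshold. Libraries with the same number and polarization deviated together (r 0.110 to 0.372, 18 of 18 pairs above 0.1), against 12 of 27 pairs across polarizations. The labels name 3 mice without tying numbers to them. Replicates differed by more than sampling noise (chi-square per gene 6.30 to 20.3).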

Additional observations from a re-analysis of the deposited data

Results flagged for a closer look

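The effect of an inhibitor differed between M[IL-4] and M[0] by the test of the interaction itself (edgeR FDR under 0.05) in 8 of the 10 genes for HC3 and 7 for RSM, each with a negative term. These counts were 2 and 5 without replicate 3, 4 and 5 without replicate 1, and 6 and 8 without replicate 2. With blocks within each polarization they were 8 and 9. The terms, as the log2 effect in M[IL-4] minus that in M[0], were -1.53 for HC3 and -1.80 for RSM in *Phgdh*, -1.30 and -1.61 in *Psat1*, and -0.62 and -0.61 in *Psph*. In the mitochondrial folate genes they were -0.53 and -0.63 in *Shmt2*, -1.12 and -1.40 in *Mthfd2*, and -0.94 and -1.14 in *Mthfd1l*. *Asns* had -1.06 and -1.39, and *Mthfd1* had -0.46 for HC3.

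Of the transcription regulators, the same test flagged *Atf4* at -0.56 for HC3 and -0.62 for RSM, *Atf5* at -0.89 and -0.91, *Ddit3* at -0.45 and -0.52, *Trib3* at -1.07 and -0.92, and *Myc* at -1.02 and -1.04. All of these comparisons share the vehicle libraries of both polarizations.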

How the results depend on the processing

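Of the 110 results for a single member, each an effect in 1 of 11 comparisons, direction and call held for 110 with replicate blocks, so that blocking by replicate number changed no call at a log2 change of 1. It held for 109 each with DESeq2, RLE size factors, no count filter and filterByExpr, for 108 with the compared groups alone, 106 with blocks within each polarization and 104 with library size scaling. Without replicate 1, 2 or 3 it held for 103, 99 and 107. Counts of called members that moved by over 1.5 times were those called higher with RSM in M[IL-4], which ran from 1 to 2 over the omissions, and negative interaction terms called for HC3, from 2 to 4. Counted by the FDR alone over every alternative, negative terms ran from 2 to 8 for HC3 and from 5 to 9 for RSM. Members lower ran from 0 to 2 with either inhibitor in M[IL-4], from 0 to 3 with IL-4 under RSM, and from 1 to 3 for HC3 against RSM in M[0]. Members higher ran from 0 to 4 with IL-4 under HC3 and from 0 to 2 for HC3 against RSM in M[IL-4]. The log2 ratio of folate arms moved by more than the spread between replicates, over the omissions, for RSM in M[0] (1.56 to 1.68), HC3 in M[IL-4] (0.98 to 1.16) and IL-4 in vehicle cells (0.51 to 0.65). *Mthfd2* with RSM in M[IL-4] reached 1.003 and a call with library size scaling. With 2 libraries left in a group, a spread shared by all groups is assumed.

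Signs turned for uncalled values near 0. With blocks within each polarization the IL-4 effect under RSM was -0.085 in *Psat1*, -0.00365 in *Mthfd1* and 0.00661 in *Shmt2*, and that under HC3 was 0.105 in *Shmt2*. Library size scaling gave -0.000664 and -0.0131 for *Psat1* and *Mthfd1* with IL-4 under RSM, 0.0459 for *Shmt1* with RSM in M[0] and 0.0203 for it with RSM in M[IL-4], and 0.0492 for *Mthfd1l* with HC3 in M[IL-4]. *Mthfd1l* there had 0.0132 with the compared groups alone and 1.15e-05 with filterByExpr. *Shmt2* with IL-4 under HC3 had 0.000634 with the compared groups alone, 0.000718 by DESeq2, 0.000714 with RLE and 0.0192 without a filter. Leaving out each replicate in turn gave these ranges of log2 change: *Shmt1* -0.0966 to 0.106 for RSM in M[0], -0.22 to 0.101 for HC3 and -0.103 to 0.0941 for RSM in M[IL-4], -0.148 to 0.19 and -0.209 to 0.191 for the interactions, and -0.136 to 0.00846 and -0.122 to 0.00736 for HC3 against RSM. They were -0.0588 to 0.0476 for *Shmt2* and -0.147 to 0.074 for *Mthfd1l* with IL-4 under HC3, -0.00895 to 0.0122 for *Mthfd1l* with HC3 in M[IL-4], -0.0466 to 0.00924 for *Mthfd2* and -0.00593 to 0.0311 for *Shmt2* with HC3 against RSM (naïve and M[IL-4] cells in turn), and -0.0556 to 0.267 for *Aldh1l2* with IL-4 in vehicle cells. The cause was not tested.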
